A study of Homo sapiens with 6 samples.

Results

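ABC genes encode the ATP-binding cassette proteins, and the genes described here are the 46 listed symbols made of ABCA to ABCG and a number with nothing after it, out of 56638 symbols in all. Messenger RNA was sequenced in cells labelled HT29, an established human colorectal cancer line at passages 16 to 19. Of 6 libraries, 3 came from cells given an siRNA against RNF6, a RING-type ubiquitin ligase, and 3 from cells given a nonspecific siRNA, called control siRNA here. The genotype labels read RNF6 knockdown for the cells given RNF6 siRNA and wild type for the controls, and both were grown in the same medium with serum. The comparison asks which ABC transcripts differ when RNF6 is depleted. The sources used here give neither the sequence or number of the siRNAs nor the time to harvest. Whether each replicate was its own culture is not in the labels, and the p-values therefore rest on library-to-library spread that may be technical.

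Most ABC proteins bind and hydrolyse ATP through paired cytosolic domains and use the energy to move a substrate across a membrane. Members of subfamily A mainly move lipids, C proteins export conjugates or gate channels, D proteins feed fatty acids into peroxisomes and G proteins move sterols and drugs. B proteins act in the plasma membrane, mitochondria or lysosomes. The E and F proteins have no membrane part and work on ribosomes. In intestinal epithelium ABCB1, ABCC2 and ABCG2 sit in the apical membrane and send drugs and conjugates back to the lumen.

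Reads assigned to genes numbered between 6808771 and 11071456 per library, and 14685 genes had enough reads to be tested. Levels are given as CPM, the count of a gene per 1000000 reads of the tested genes, after scaling between libraries. RNF6 had 16.5, 16.2 and 16.9 CPM after RNF6 siRNA, against 54.3, 45.2 and 57.8 CPM after control siRNA. It was 3.17-fold lower (log2 fold change −1.66, SE 0.126, edgeR adjusted p = 2.12e-06). Of 10 intestinal epithelial markers, EPCAM (227 ± 15.0 CPM after RNF6 siRNA and 218 ± 9.91 CPM after control siRNA, SD, n = 3), CDH1 and CDX2 were present without a called difference. CDX1 had 0 reads in all 6 libraries, and VIL1 and CDH17 stayed below 1 CPM in each, so these defining markers of intestinal epithelium were absent or nearly so in libraries labelled HT29. The keratin genes KRT18 (3.07-fold), KRT8 (2.44-fold), KRT20 (3.04-fold) and KRT19 (1.51-fold) were lower after RNF6 siRNA, the first 2 of them with edgeR adjusted p = 3.61e-06 and 9.37e-06. KRT20 had few reads, at 9, 3 and 7 after RNF6 siRNA and 10, 21 and 21 after control siRNA. It stayed below 1 CPM in each RNF6 siRNA library and was tested only because of its control libraries. The marker list summed to 2445 to 2829 CPM after RNF6 siRNA, against 4351 to 5652 CPM after control siRNA. Markers of leukocytes summed to 1.33 to 2.76 CPM after RNF6 siRNA and 1.79 to 3.92 CPM after control siRNA, with PTPRC below 1 CPM throughout, and 0 of 7 were tested. Markers of endothelium summed to 1.08 to 2.07 CPM after RNF6 siRNA and 1.93 to 2.69 CPM after control siRNA, with PECAM1 at 0. Fibroblast markers summed to 70.0 to 84.8 CPM after RNF6 siRNA and 50.1 to 65.4 CPM after control siRNA, nearly all of it from COL1A1, while DCN and LUM stayed below 1 CPM. COL1A1 was 1.33-fold higher after RNF6 siRNA (edgeR adjusted p = 0.0197), a call that ended without RNF6 siRNA replicate 1 (0.0690) or 3 (0.0727) or control replicate 3 (0.0793), over a range of 0.00534 to 0.0969. VWF, an endothelial marker, was 2.02-fold lower (edgeR adjusted p = 0.0283), at 11, 8 and 9 reads after RNF6 siRNA and 11, 19 and 21 after control siRNA. Like KRT20, VWF was tested only because of its control libraries. Its call ended without RNF6 siRNA replicate 1 (0.0630) or 3 (0.122), without control replicate 2 (0.0782) or 3 (0.119) and with DESeq2 (0.109). The VWF range was 0.0147 to 0.122. The part of these markers in the ABC results was not tested. In bulk RNA, a change in the share of some cells and a change in RNA per cell cannot be told apart.

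Of the 46 ABC genes, 33 passed the filter on low counts. Of these, 5 were higher and 8 lower after RNF6 siRNA at an adjusted p below 0.05, and 20 did not pass. Together 39.4% of the tested ABC genes were called, against 32.7% of all tested genes. The higher calls made up 15.2% of the tested ABC genes against 16.6% of all tested genes, and the lower calls 24.2% against 16.1%. Their median log2 fold change was -0.01, and that of all tested genes was 0.01. For 16 of the 33, or 48.5%, the highest library of a group lay below the lowest of the other group, against 44.2% of all tested genes. These shares lie near the background, so the account below is about single genes. Without RNF6 siRNA replicate 3, 1 ABC gene was higher and 5 lower. Without control replicate 3, 2 were higher and 4 lower. On the second principal component of log2 CPM (18.2% of the variance), control replicate 1 lay at 28.75 and control replicates 2 and 3 at -18.8 and -1.38. The RNF6 siRNA replicates 1, 2 and 3 lay at -18.0, 8.21 and 1.25. Several calls below change without control replicate 1, and the part of its distance in them was not tested. The genes ABCD2, ABCA4, ABCA9 and ABCA10 passed the filter with fewer than 3 libraries of a group above its level of 1.08 CPM. ABCD2 had 0 RNF6 siRNA libraries above it and all 3 control libraries.

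**Figure D1:**
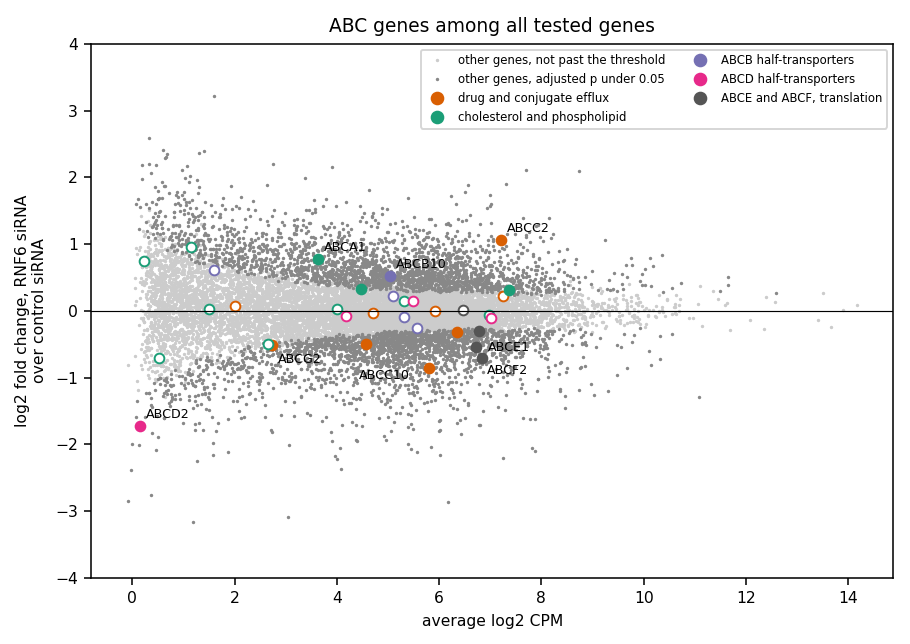
Log2 fold change, RNF6 siRNA over control siRNA (vertical axis), against average log2 CPM (horizontal axis) for the 14685 tested genes. Coloured points are the 33 tested ABC genes by role, filled where the adjusted p is below 0.05, and those past the threshold with a log2 change of at least 0.5 in size are named.

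Summed over the 46 ABC genes, the libraries held 1714, 1657 and 1775 CPM after RNF6 siRNA, and 1672, 1723 and 1759 CPM after control siRNA. These ranges overlap. Levels between genes are compared per kilobase of annotated exon. Exons of an overlapping gene on the same strand cover 45.8% of ABCF2, and reads that fit both genes are not assigned. Its level per kilobase may therefore be too low, and its place against ABCC2 in the orders below is uncertain. After RNF6 siRNA the order of group means was led by ABCC2 at 25.7 CPM per kilobase, before ABCF1 (21.8), ABCC1 (21.6) and ABCF2 (20.6). After control siRNA it was led by ABCF2 at 33.7 CPM per kilobase, before ABCF1 (26.8), ABCE1 (19.9) and ABCC1 (18.6), and ABCC2 stood ninth at 12.3. Over all 6 libraries ABCF2 averaged 27.2 CPM per kilobase, ABCF1 24.3, ABCC1 20.1, ABCC2 19.0, ABCD3 17.0 and ABCF3 16.9. ABCE1 averaged 16.8, within the library spread of ABCD3 and ABCF3, and ABCA7 and ABCA2 15.0 and 14.2. These 9 genes, the first 9 in each group, were membrane transporters of conjugates, lipids and fatty acids together with all 4 proteins of translation. ABCG2 and ABCA1, the breast cancer resistance protein and the cholesterol exporter, were far lower at 1.26 and 1.07 CPM per kilobase.

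**Figure D2:**
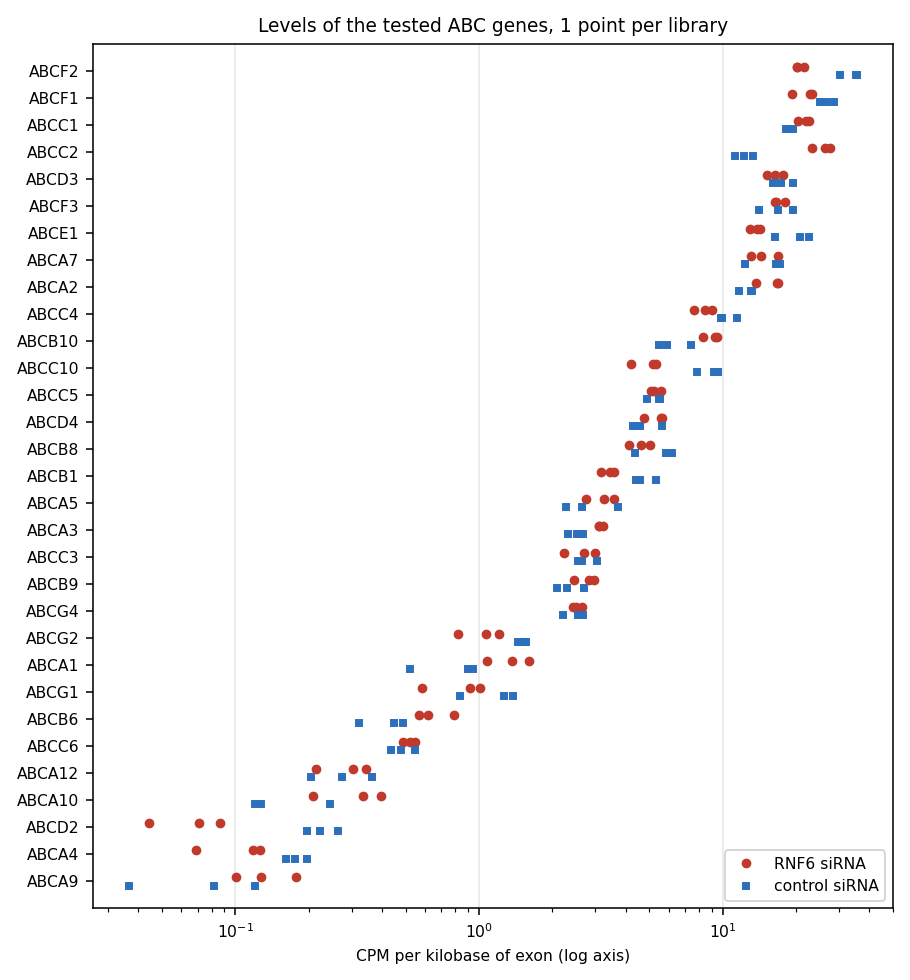
CPM per kilobase of exon on a log axis for 31 of the 33 tested ABC genes, ordered by their mean over all 6 libraries, with 1 red circle per RNF6 siRNA library and 1 blue square per control siRNA library. ABCF2 comes first at 27.2 although ABCC2 leads among the RNF6 siRNA libraries alone, and the points of ABCC2 and ABCC10 separate by group in opposite directions. The place of ABCF2 is uncertain, because an overlapping gene on the same strand covers 45.8% of its exons.

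Among genes for efflux of drugs, conjugates and nucleotides, ABCC2 rose and ABCC10, ABCB1, ABCG2 and ABCC4 fell, which is 1 and 4 of 9 tested against 16.6% higher and 16.1% lower among all tested genes. ABCC2 encodes the apical exporter of glutathione and glucuronide conjugates, bilirubin conjugates among them. It had 182, 206 and 215 CPM after RNF6 siRNA, against 105, 88.2 and 95.4 CPM after control siRNA. All 3 RNF6 siRNA libraries lay above the controls, and the gene rose 2.10-fold (log2 fold change 1.07, SE 0.106, edgeR adjusted p = 1.45e-05). ABCC2 made up 34.0 ± 2.0% of the summed CPM of the 12 efflux genes after RNF6 siRNA and 18.3 ± 1.39% after control siRNA (SD, n = 3). The other 11 genes of the group summed to 393, 375 and 404 CPM after RNF6 siRNA, against 422, 425 and 440.1 CPM after control siRNA. The sum of those genes was lower in every RNF6 siRNA library, while that of all 12 was higher, at 592 ± 23.9 CPM after RNF6 siRNA against 525 ± 11.3 CPM after control siRNA. The 11 genes leave out the 1 efflux gene called higher and hold the 4 called lower, so their lower sum follows in part from that split.

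ABCC10, also called MRP7, exports lipophilic drugs such as taxanes. Its levels were 42.8, 34.1 and 41.9 CPM after RNF6 siRNA and 63.1, 74.8 and 77.4 CPM after control siRNA. The groups did not overlap, and ABCC10 fell 1.81-fold (log2 fold change −0.85, SE 0.124, edgeR adjusted p = 2.41e-04). The calls of ABCC2 and ABCC10 held in every alternative run. The sequences upstream of their annotated starts are shown because these were the largest rise and the largest fall among well-detected ABC genes. For ABCC10 the window of the first of 2 annotated starts is shown. They come from RefSeq on build GRCh38.p14, a different build from the hg19 of the counts, and of each window the longest run clear of annotated exons is printed. Capitals mark matches to TGANNNNGC, a loose form of the core of the antioxidant response element, searched on both strands.
ABCC2, plus strand, chr10:99782390-99782639: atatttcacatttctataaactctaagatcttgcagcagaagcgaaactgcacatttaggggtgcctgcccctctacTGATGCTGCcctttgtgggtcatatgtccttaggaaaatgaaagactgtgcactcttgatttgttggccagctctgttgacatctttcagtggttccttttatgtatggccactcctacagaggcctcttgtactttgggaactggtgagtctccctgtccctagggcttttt
ABCC10, plus strand, chr6:43427390-43427540: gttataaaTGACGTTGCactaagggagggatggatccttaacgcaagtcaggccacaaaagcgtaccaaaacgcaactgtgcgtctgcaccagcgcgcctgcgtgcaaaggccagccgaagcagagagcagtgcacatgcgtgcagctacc

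Both stretches hold 1 such match, although the genes moved in opposite directions. The match is common: 35.2% of 35116 windows of 250 bases upstream of annotated starts hold it, as do 20 of 53 such windows of ABC genes (37.7%). These were 14 of the 21 windows of called ABC genes and 6 of the 32 windows of the others, or 10 of 13 called genes and 6 of 22 others, a difference that was not tested. The others include genes with too few reads to be tested. Windows of ABCG2 overlap and share a match, so the windows are not independent. RefSeq windows were found for 35 of the 46 ABC genes. The STAT-type motif TTCNNNGAA, searched on both strands because the series concerns STAT3, was in 2 of the 53 windows (3.77%) against 6.57% of all windows. These matches are descriptions of letters and not of bound sites.

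ABCB1 encodes P-glycoprotein, the broad-range drug pump. Its levels were 18.3, 20.8 and 20.1 CPM after RNF6 siRNA, against 26.7, 25.6 and 30.8 CPM after control siRNA. Every RNF6 siRNA library was below the controls, and ABCB1 fell 1.41-fold (log2 fold change −0.50, SE 0.12, edgeR adjusted p = 0.00889). ABCG2, another apical drug pump, had 6.07, 4.13 and 5.38 CPM after RNF6 siRNA and 7.29, 7.83 and 7.57 CPM after control siRNA. It fell 1.43-fold without overlap (edgeR adjusted p = 0.0400). ABCC4, which exports cyclic nucleotides and prostaglandins, had 65.6, 78.2 and 72.9 CPM after RNF6 siRNA, against 98.8, 84.8 and 85.4 CPM after control siRNA. ABCC4 fell 1.24-fold (edgeR adjusted p = 0.0445), and its groups did not overlap either.

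The ABCB1 call ended without control replicate 3 (edgeR adjusted p = 0.0631, over a range of 0.00264 to 0.0631). That of ABCG2 ended without RNF6 siRNA replicate 2 (edgeR adjusted p = 0.117) or 3 (0.102), without control replicate 2 (0.0863) or 3 (0.101), with DESeq2 (0.0987) and with low-count genes kept (0.0533). Its range over all settings was 0.0299 to 0.117. The ABCC4 call ended without RNF6 siRNA replicate 1 (edgeR adjusted p = 0.155) or 3 (0.122), without control replicate 1 (0.0813) or 3 (0.0892) and with upper-quartile scaling (0.0544), over a range of 0.0325 to 0.164.

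ABCC1, the basolateral exporter of glutathione conjugates and leukotriene C4, had 170.5, 154 and 167 CPM after RNF6 siRNA, against 138, 138 and 148 CPM after control siRNA. The groups did not overlap, but the gene did not pass (log2 fold change 0.22, 95% interval 0.01 to 0.42, edgeR adjusted p = 0.0922). ABCC3, a basolateral exporter of glucuronides, averaged 25.4 ± 3.68 CPM after RNF6 siRNA and 26.4 ± 2.48 CPM after control siRNA (SD, n = 3), with an interval of −0.33 to 0.25 on the log2 scale. ABCC5, an exporter of nucleotides and their analogues, averaged 60.3 ± 3.0 CPM after RNF6 siRNA and 60.6 ± 4.22 CPM after control siRNA, with an interval of −0.23 to 0.22. Neither interval includes a change of 1.5-fold. ABCC6, which governs cellular release of ATP, averaged 3.92 ± 0.230 CPM after RNF6 siRNA and 3.69 ± 0.423 CPM after control siRNA, and is uncertain because its pseudogenes share sequence with it. ABCB5, ABCC11 and ABCC12 had at most 3 reads in any library and were not tested.

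**Figure D3:**
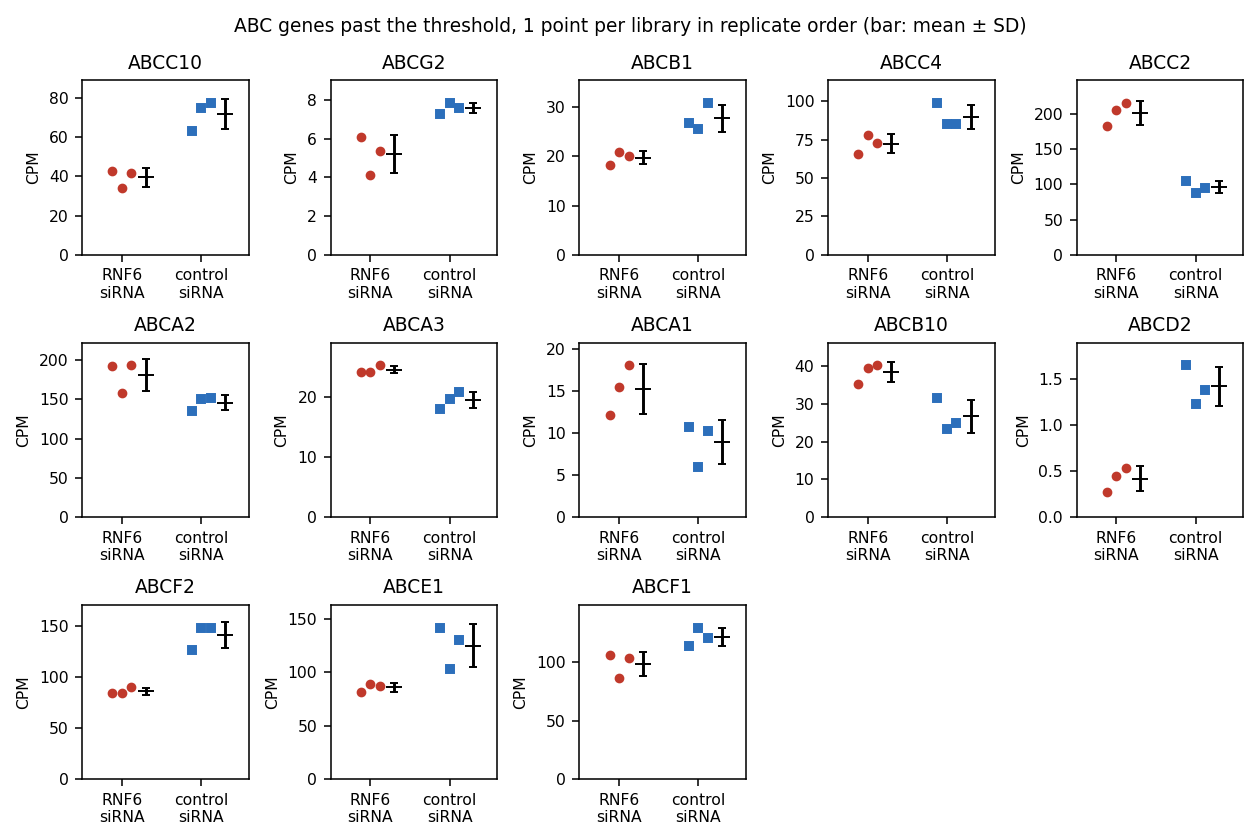
CPM by library for the 13 ABC genes past the threshold, RNF6 siRNA (red circles) left of control siRNA (blue squares), each panel from 0. Black bars are mean ± SD of 3 libraries. In every panel the libraries of the groups do not overlap, as for 44.2% of all tested genes. The panels were chosen by a test on these same libraries, so this separation is no further evidence.

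Of 14 tested conjugating enzymes that make substrates for efflux pumps, 2 rose and 5 fell, against 16.6% higher and 16.1% lower among all tested genes, with a median log2 fold change of -0.30. MGST1, a membrane-bound glutathione transferase, was 2.93-fold lower, at 21.3 ± 2.08 CPM after RNF6 siRNA and 62.2 ± 1.35 CPM after control siRNA (edgeR adjusted p = 1.64e-06). NAT1, an arylamine acetyltransferase, was 1.98-fold lower and the thiopurine methyltransferase gene TPMT 1.44-fold lower. The phenol sulphotransferase gene SULT1A1 was 1.85-fold higher, at 33.0 ± 0.962 CPM after RNF6 siRNA and 17.9 ± 1.39 CPM after control siRNA. SULT1A1 shares sequence with its paralogs and is uncertain. Of the 29 listed genes, 9 had 0 reads in all libraries, among them several UGT1A genes, which share exons, so reads in those exons cannot be assigned to a single gene. Without control replicate 1, 8 enzymes were lower. Without control replicate 2, 1 was higher and 3 were lower, as without RNF6 siRNA replicate 3. Without RNF6 siRNA replicate 2, 1 was higher.

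Among 14 tested targets of NRF2, the transcription factor of the oxidant response that also drives ABCC2 and ABCC3, 5 rose and 2 fell, against 16.6% higher and 16.1% lower among all tested genes. The median log2 fold change was 0.11. The malic enzyme gene ME1 rose 1.71-fold and the quinone reductase gene NQO1 1.31-fold. The pentose phosphate enzyme gene PGD fell 1.94-fold, at 108 ± 4.94 CPM after RNF6 siRNA and 211 ± 17.5 CPM after control siRNA, and the haem oxygenase gene HMOX1 fell 1.46-fold. The NQO1 call ended without RNF6 siRNA replicate 2 (edgeR adjusted p = 0.0594) or control replicate 3 (0.0717), over a range of 0.00253 to 0.0717. Without RNF6 siRNA replicate 2 or 3 or control replicate 3, 2 NRF2 targets were higher, and without control replicate 1, 4 were lower. NFE2L2, which encodes NRF2 itself and was added after its values were seen, averaged 132 CPM after RNF6 siRNA and 134 CPM after control siRNA.

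Among 18 tested transcription factors reported to control ABC genes, 3 rose and 6 fell, against 16.6% higher and 16.1% lower among all tested genes, with a median log2 fold change of 0.04. The lipid-sensing receptor gene PPARG fell 2.61-fold, at 10.4 ± 1.28 CPM after RNF6 siRNA and 27.3 ± 3.44 CPM after control siRNA (edgeR adjusted p = 2.36e-05). HIF1A, the hypoxia factor, fell 1.47-fold. PPARA, the receptor for fatty acids, rose 2.02-fold, at 63.7 ± 8.71 CPM after RNF6 siRNA and 31.5 ± 2.73 CPM after control siRNA, and RXRB, a partner of such receptors, rose 1.67-fold.

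**Figure D4:**
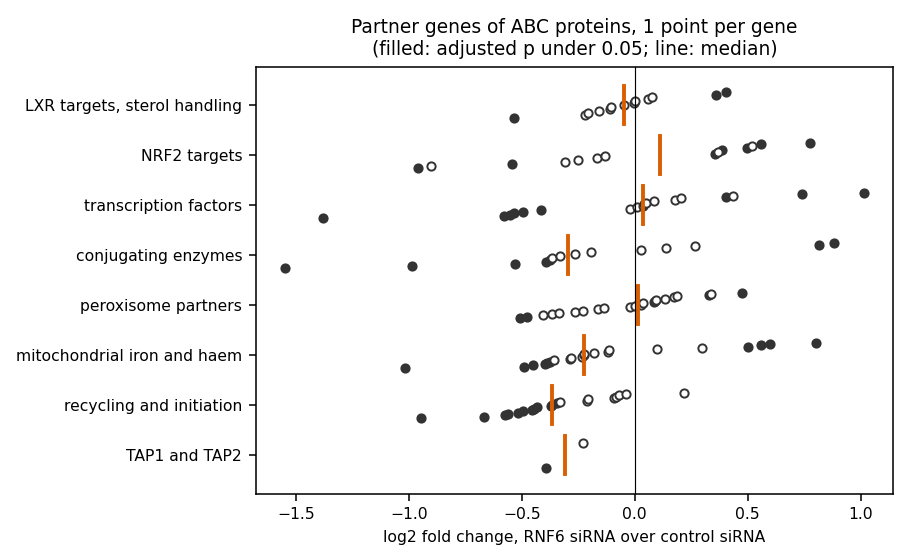
Log2 fold change, RNF6 siRNA over control siRNA, for the tested genes of 8 lists of partners and regulators, 1 point per gene, filled where the adjusted p is below 0.05, with the median of each list as a line. The recycling and initiation list has its median at -0.37, and its 12 filled points all lie left of 0. The lists were chosen with earlier results of these data known.

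Among genes for cholesterol, phospholipid and bile lipid transport, 3 of 11 tested rose, 0 fell and 8 did not pass, against 16.6% higher and 16.1% lower among all tested genes. ABCA1, which passes cholesterol and phospholipid to apolipoprotein A-I, had 12.2, 15.5 and 18.1 CPM after RNF6 siRNA, against 10.7, 5.93 and 10.2 CPM after control siRNA. All RNF6 siRNA libraries were above the controls, and it rose 1.71-fold (log2 fold change 0.78, SE 0.213, edgeR adjusted p = 0.0141). ABCA2, a lipid transporter of late endosomes and lysosomes, had 193, 158 and 194 CPM after RNF6 siRNA, against 135, 150.4 and 152 CPM after control siRNA. It rose 1.25-fold (edgeR adjusted p = 0.0367), with RNF6 siRNA replicate 2 close to the controls. ABCA3, which loads phospholipid into the lamellar bodies of lung cells, had 24.2, 24.2 and 25.3 CPM after RNF6 siRNA, against 18, 19.7 and 20.8 CPM after control siRNA. It rose 1.26-fold (edgeR adjusted p = 0.0475).

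The ABCA1 call ended without RNF6 siRNA replicate 3 (edgeR adjusted p = 0.0931, over a range of 1.00e-04 to 0.0931). That of ABCA2 ended without RNF6 siRNA replicate 1 (edgeR adjusted p = 0.111) or 3 (0.165), without control replicate 1 (0.0628) or 3 (0.0993) and with low-count genes kept (0.0535). Its range was 0.0186 to 0.165. The ABCA3 call ended without any of the 6 libraries in turn, at an edgeR adjusted p of 0.0885, 0.0856 and 0.160 without RNF6 siRNA replicates 1, 2 and 3, and of 0.115, 0.0975 and 0.101 without control replicates 1, 2 and 3. It also ended with DESeq2 (0.102) and with low-count genes kept (0.137). Its range was 0.0403 to 0.160.

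ABCG1, which loads cholesterol onto high-density lipoprotein and shares liver X receptor (LXR) control with ABCA1, had 3.59, 5.61 and 6.19 CPM after RNF6 siRNA, against 5.09, 7.72 and 8.43 CPM after control siRNA. The groups overlapped and the difference did not pass (log2 fold change −0.49, 95% interval −1.01 to 0.02, edgeR adjusted p = 0.128). Without control replicate 1 ABCG1 was called lower (edgeR adjusted p = 0.0130, over a range of 0.0130 to 0.398). ABCG4, its close relative in brain, averaged 15.8 ± 0.743 CPM after RNF6 siRNA and 15.6 ± 1.5 CPM after control siRNA (SD, n = 3).

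ABCA7, a phospholipid transporter of the plasma membrane, averaged 123 ± 16.1 CPM after RNF6 siRNA and 128 ± 21.8 CPM after control siRNA. ABCA5, a lysosomal protein, averaged 41.9 ± 5.45 CPM after RNF6 siRNA and 37.8 ± 9.72 CPM after control siRNA. It was called higher without control replicate 1 (edgeR adjusted p = 0.0333, over a range of 0.0333 to 0.989). ABCA10, a neighbour of ABCA5 in a cluster of related genes, averaged 2.62 ± 0.801 CPM after RNF6 siRNA and 1.38 ± 0.593 CPM after control siRNA with overlap (edgeR adjusted p = 0.0543). The ABCA10 difference passed without RNF6 siRNA replicate 1 (edgeR adjusted p = 0.0159) or control replicate 1 (0.00765), with low-count genes kept (0.0317) and with upper-quartile scaling (0.0485), and ranged over 0.00765 to 0.256. ABCA9, of the same cluster, averaged 1.24 ± 0.357 CPM after RNF6 siRNA and 0.728 ± 0.383 CPM after control siRNA. ABCA12, the keratinocyte lipid transporter, averaged 2.71 ± 0.627 CPM after RNF6 siRNA and 2.64 ± 0.762 CPM after control siRNA, and ABCA4, the retinal flippase, 0.893 ± 0.264 CPM after RNF6 siRNA and 1.52 ± 0.153 CPM after control siRNA, without overlap but not past the threshold (edgeR adjusted p = 0.135).

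Genes not tested in this group had 0 to 9 reads in each library. They were ABCA6, ABCA8 and ABCA13, the sterol exporter pair ABCG5 and ABCG8, the phosphatidylcholine flippase gene ABCB4 and the bile salt pump gene ABCB11. ABCB11 had 0 reads in each RNF6 siRNA library, against 1, 1 and 2 reads in the control libraries. A count of 0 allows up to 0.271 to 0.441 CPM in those RNF6 siRNA libraries, so this difference was not detectable at this depth. The limit covers counting error only.

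Of 13 tested LXR targets and genes of sterol handling, 2 rose and 1 fell, against 16.6% higher and 16.1% lower among all tested genes, with a median log2 fold change of -0.05. The 2 LXR genes went apart: NR1H2, for LXR beta, rose 1.32-fold and NR1H3, for LXR alpha, fell 1.45-fold. SREBF1, the lipogenic transcription factor gene, rose 1.28-fold. The NR1H2 call ended without RNF6 siRNA replicate 1 (edgeR adjusted p = 0.0898) or 3 (0.0653) or control replicate 3 (0.0715), over a range of 0.0166 to 0.103. That of NR1H3 ended without RNF6 siRNA replicate 2 (edgeR adjusted p = 0.0540) or 3 (0.0609) or control replicate 3 (0.0692), over a range of 0.0117 to 0.0692. The SREBF1 call ended without RNF6 siRNA replicate 1 (edgeR adjusted p = 0.137) or 3 (0.162) or control replicate 1 (0.0909) or 3 (0.108), over a range of 0.0129 to 0.162. Without RNF6 siRNA replicate 3 or control replicate 3, 0 genes of the list were called in either direction. Without RNF6 siRNA replicate 1, 0 were higher, without control replicate 1, 1 was higher, and without RNF6 siRNA replicate 2, 0 were lower.

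**Figure D5:**
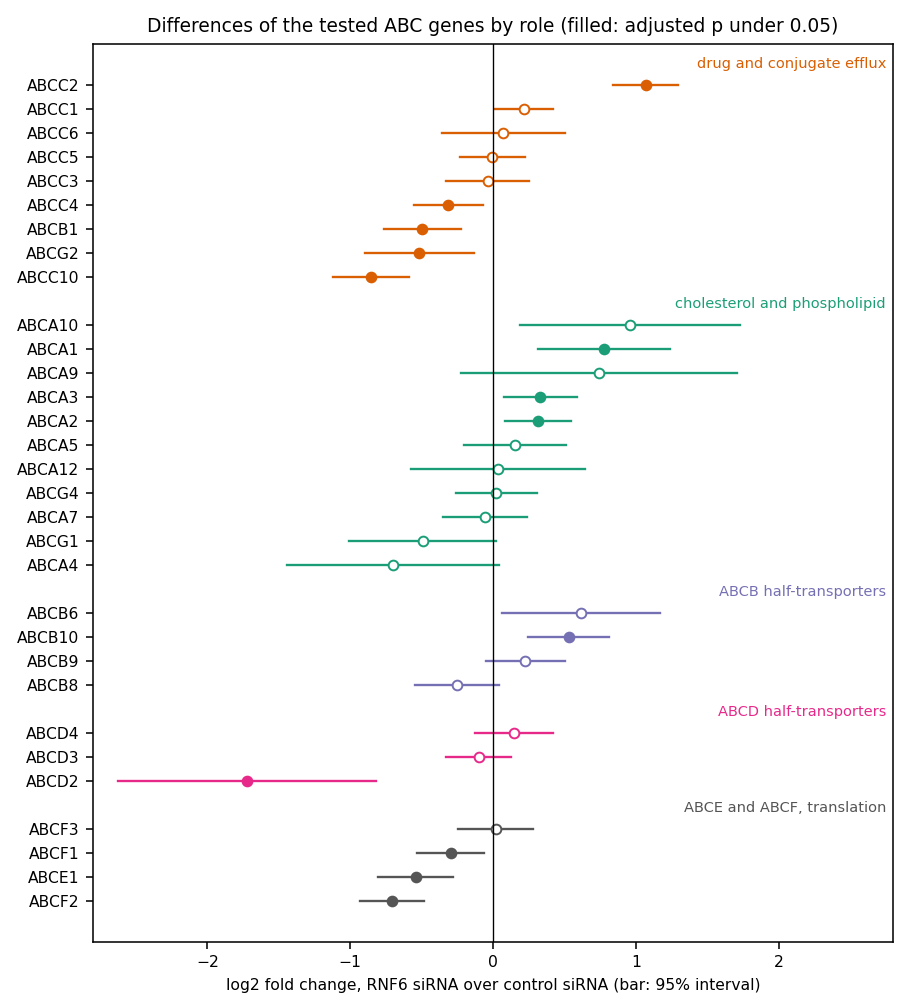
Log2 fold change with its 95% interval, RNF6 siRNA over control siRNA, for 31 of the 33 tested ABC genes grouped by role, filled where the adjusted p is below 0.05. ABCC2 stands highest at 1.07 and ABCD2 lowest at -1.73, and the intervals widen for genes with few reads.

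Among the ABC proteins of ribosomes, ABCF2, ABCE1 and ABCF1 fell and ABCF3 did not pass, against 16.1% called lower among all tested genes. ABCF2 had 84.5, 84.1 and 90.1 CPM after RNF6 siRNA, against 126, 148 and 148 CPM after control siRNA. It fell 1.63-fold without overlap (log2 fold change −0.71, SE 0.103, edgeR adjusted p = 2.42e-04). Annotated exons of an overlapping gene on the same strand cover 45.8% of ABCF2 in GENCODE release 29, so its level is uncertain. ABCE1, which splits ribosomes after termination so that they can be used again, had 81.3, 89.3 and 86.7 CPM after RNF6 siRNA, against 142, 103 and 130.1 CPM after control siRNA. ABCE1 fell 1.46-fold (log2 fold change −0.54, SE 0.122, edgeR adjusted p = 0.00470), with control replicate 2 nearest to the RNF6 siRNA libraries. Genes on the opposite strand overlap 11.9% of it, and the strand setting of the counts is not stated.

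The calls of ABCF2 and ABCE1 held in every alternative run. ABCF1, which binds initiation factor eIF2, had 106, 86.6 and 103 CPM after RNF6 siRNA, against 114, 129 and 120.3 CPM after control siRNA. It fell 1.23-fold without overlap (edgeR adjusted p = 0.0490). This call ended without RNF6 siRNA replicate 2 (edgeR adjusted p = 0.169) or 3 (0.0965), without control replicate 2 (0.118) or 3 (0.126), with upper-quartile scaling (0.0634) and with low-count genes kept (0.0550). Its range was 0.0133 to 0.169. ABCF3, related to the yeast regulator Gcn20, had 86.5, 85.0 and 93.9 CPM after RNF6 siRNA, against 73.2, 101 and 88.0 CPM after control siRNA. Its groups overlapped, and the 95% interval of its log2 fold change ran from −0.24 to 0.28. The 4 genes summed to 358, 345 and 374 CPM after RNF6 siRNA, against 455, 481 and 486 CPM after control siRNA, without overlap. This sum holds ABCF2, ABCE1 and ABCF1, each called lower, so it follows from those calls and adds no separate result.

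The stretch upstream of ABCF2 is given because this gene led the fall of the ribosomal ABC genes. It is from RefSeq on GRCh38.p14, as the longest run of the window clear of annotated exons. Capitals mark GGGCGG, the GC box, and CCAAT, both searched on either strand.
ABCF2, minus strand, chr7:151227231-151227455: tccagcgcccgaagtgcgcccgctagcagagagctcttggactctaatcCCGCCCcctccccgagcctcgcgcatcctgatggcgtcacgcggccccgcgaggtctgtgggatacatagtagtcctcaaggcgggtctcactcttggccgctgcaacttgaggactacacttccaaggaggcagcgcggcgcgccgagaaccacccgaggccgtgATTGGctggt

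The stretch holds 1 match to each motif. The GC box was in 42.6% of all windows and in 47.2% of those of ABC genes, and CCAAT in 32.0% and 20.8%.

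Of 20 tested genes of ribosome recycling and initiation, 12 fell and 0 rose, with a median log2 fold change of -0.37. Among all tested genes 16.1% were called lower, and the median was 0.01. EIF2B3, a subunit of the exchange factor that reloads eIF2, was 1.93-fold lower, at 13.4 ± 1.19 CPM after RNF6 siRNA and 26.0 ± 2.71 CPM after control siRNA (edgeR adjusted p = 1.92e-04). EIF2B5, the catalytic subunit of that factor, was 1.49-fold lower (edgeR adjusted p = 0.00104). EIF2AK4, the kinase GCN2 that senses amino acid lack, was 1.48-fold lower, and EIF6, which keeps large ribosomal subunits from joining, was 1.59-fold lower. The remaining 8 lower genes were 1.27-fold to 1.43-fold lower. At least 9 genes of the list were lower in each run without a single library. Fewer were lower in the fit with a replicate block. That fit ended the calls of EIF2B1, EIF2B2 and EIF2B4, among others (edgeR adjusted p = 0.147, 0.106 and 0.154). The list was chosen with earlier results of these data known, so its counts are a description. Without control replicate 1, 1 gene of the list was higher.

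Among ABC proteins of mitochondria and lysosomes, ABCB10 was the gene past the threshold out of 5 tested, against 16.6% higher and 16.1% lower among all tested genes. ABCB10, an inner-membrane protein needed for haem synthesis, had 35.4, 39.6 and 40.3 CPM after RNF6 siRNA, against 31.6, 23.4 and 25.1 CPM after control siRNA. It rose 1.44-fold without overlap (log2 fold change 0.53, SE 0.132, edgeR adjusted p = 0.00843). The call ended without RNF6 siRNA replicate 3 (edgeR adjusted p = 0.0525) or control replicate 3 (0.0596), over a range of 1.92e-04 to 0.0596.

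ABCB6, a porphyrin transporter, averaged 3.44 ± 0.616 CPM after RNF6 siRNA and 2.19 ± 0.458 CPM after control siRNA without overlap, and did not pass (edgeR adjusted p = 0.0807). An overlapping gene on the same strand covers 54.7% of its exons, so its level is uncertain. ABCB8, of the inner membrane, averaged 42.9 ± 4.12 CPM after RNF6 siRNA and 51.1 ± 9.03 CPM after control siRNA, and was called lower without control replicate 1 (edgeR adjusted p = 0.00945, over a range of 0.00945 to 0.498). ABCB9, the lysosomal peptide transporter, averaged 36.5 ± 3.5 CPM after RNF6 siRNA and 31.3 ± 4.21 CPM after control siRNA, with 24.5% of its exons under genes on the opposite strand.

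Of 21 tested mitochondrial partners in iron, haem and iron-sulphur synthesis, 4 rose and 6 fell, against 16.6% higher and 16.1% lower among all tested genes, with a median log2 fold change of -0.23. Enzymes of haem synthesis went both ways. The ferrochelatase gene FECH, whose enzyme inserts iron into protoporphyrin, rose 1.41-fold, at 64.4 ± 3.30 CPM after RNF6 siRNA and 45.5 ± 2.21 CPM after control siRNA. The coproporphyrinogen oxidase gene CPOX rose 1.48-fold and the ferredoxin reductase gene FDXR 1.74-fold. UROD, which acts just before CPOX, fell 2.02-fold, at 41.1 ± 6.5 CPM after RNF6 siRNA and 83.3 ± 15.0 CPM after control siRNA (edgeR adjusted p = 2.63e-04). The count of lower genes was 3 without RNF6 siRNA replicate 2 or control replicate 2, 1 without RNF6 siRNA replicate 3, 2 without control replicate 3 and 10 without control replicate 1, while 4 rose in each of these.

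Among the ABCD proteins, ABCD2 fell and the other 3 genes did not pass, against 16.1% called lower among all tested genes. ABCD2, a peroxisomal importer of very long-chain and polyunsaturated fatty acids, had 0.276, 0.443 and 0.538 CPM after RNF6 siRNA, against 1.65, 1.23 and 1.39 CPM after control siRNA. These are 3, 3 and 6 reads after RNF6 siRNA and 12, 11 and 13 reads after control siRNA. The gene fell 3.31-fold without overlap (log2 fold change −1.73, SE 0.418, 95% interval −2.63 to −0.82, edgeR adjusted p = 0.00716), and it was tested only because of its control libraries. ABCD3, the most abundant peroxisomal importer here, had 116, 134 and 125 CPM after RNF6 siRNA, against 148, 122 and 132 CPM after control siRNA, with overlap and a log2 interval of −0.33 to 0.13. ABCD4, which works in lysosomal export of vitamin B12, averaged 46.7 ± 4.30 CPM after RNF6 siRNA and 42.3 ± 6.16 CPM after control siRNA.

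Of 22 tested peroxisome partners, 2 rose and 2 fell, against 16.6% higher and 16.1% lower among all tested genes, with a median log2 fold change of 0.01. The acyl-CoA synthetase gene ACSL1 fell 1.42-fold and the import factor gene PEX13 1.39-fold, while the catalase gene CAT rose 1.25-fold and PEX6, for an ATPase that recycles import receptors, 1.39-fold. The ACSL1 call ended without RNF6 siRNA replicate 3 (edgeR adjusted p = 0.0688, over a range of 8.77e-04 to 0.0688). That of PEX13 ended without RNF6 siRNA replicate 1 (edgeR adjusted p = 0.0895) or control replicate 3 (0.0841), over a range of 0.00383 to 0.0895. The CAT call ended without RNF6 siRNA replicate 2 (edgeR adjusted p = 0.104) or 3 (0.0677), without control replicate 1 (0.0664) or 3 (0.0940) and with low-count genes kept (0.0516). Its range was 0.0228 to 0.105. The PEX6 call ended without RNF6 siRNA replicate 1 (edgeR adjusted p = 0.109) or 3 (0.0980) or control replicate 3 (0.0974), over a range of 0.00543 to 0.119. The list had 0 higher genes without RNF6 siRNA replicate 3 or control replicate 3, 1 lower gene without RNF6 siRNA replicate 1 or 3 or control replicate 3, and 6 lower genes without control replicate 1. Without RNF6 siRNA replicate 2, 1 was higher.

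The sulphonylurea receptor genes ABCC8 and ABCC9, which regulate potassium channels, had 0 to 3 reads in each library and were not tested. ABCC13, a pseudogene, had 0 reads in all 6 libraries. Of the ABC family genes named otherwise, TAP2, a chain of the peptide transporter of antigen presentation, was 1.31-fold lower, at 54.7, 50.2 and 56.3 CPM after RNF6 siRNA and 68.9, 70.7 and 72.2 CPM after control siRNA (edgeR adjusted p = 0.0100). Its call ended without control replicate 3 (edgeR adjusted p = 0.0541, over a range of 0.00431 to 0.0677). TAP1, the partner chain, averaged 37.4 ± 1.29 CPM after RNF6 siRNA and 43.7 ± 2.22 CPM after control siRNA (edgeR adjusted p = 0.113). CFTR, the epithelial chloride channel, averaged 0.181 ± 0.179 CPM after RNF6 siRNA and 0.672 ± 0.344 CPM after control siRNA and was not tested.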

How the data were processed

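The files the authors deposited hold raw read counts, 1 whole number per gene symbol and library. Reads were aligned with TopHat2 2.0.11 to hg19 (GRCh37) and counted with HTSeq, per the submitters' processing notes. The sources used here name neither the strand setting nor the annotation release. Reads that fit more than 1 gene or place are not assigned by HTSeq. Rows that name no gene held 27.3% to 29.4% of listed reads and were left out.

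The raw counts went into edgeR 4.0.16 under R 4.3.3: filterByExpr (minimum count 10, minimum total 15), TMM scaling, and a robust quasi-likelihood fit of group over all 6 libraries (two-sided). Benjamini-Hochberg adjustment ran over 14685 genes, with the call set at adjusted p-values below 0.05. CPM values use library sizes after the filter and TMM factors. Exon lengths and overlaps came from GENCODE release 29 (GRCh38). The test was tried on simulated counts for these 14685 genes, with only 200 of them altered and 3 simulated sets per fold size. There the test found 53.0% of the 1.5-fold and 86.8% of the 2-fold changes. Genes left unaltered made up 9.72% and 4.02% of the calls. The real comparison called 4806 genes. Such rates depend on how many genes differ, so these do not give the recovery or the false share of the real calls.

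Alternatives were other scaling, low-count genes kept, DESeq2 1.42.0, limma-voom (limma 3.58.1), a replicate block and leaving out each library. Sums hold all 46 ABC genes, and calls, shares and medians the 33 tested. Single values of 2 genes, not past the threshold, are not reported here. Values are given per library for each called gene, the 6 most abundant and 6 fixed transporters, and up to 4 called genes per list. The ABC genes and lists were chosen with earlier results of these data known.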

Additional observations from a re-analysis of the deposited data

How the results depend on the processing

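RNF6 kept its direction and its call in all 12 alternatives. Leaving out each library in turn gave 1 to 5 ABC genes higher and 4 to 9 lower. The count of all tested genes higher ran between 1514 and 2910, and that of all tested genes lower between 1478 and 2967. On the same runs the lists gave, higher and lower, 0 to 2 and 0 to 1 for LXR targets, 2 to 5 and 2 to 4 for NRF2 targets, 1 to 2 and 3 to 8 for conjugating enzymes, 0 to 2 and 1 to 6 for peroxisome partners and 2 to 3 and 4 to 6 for transcription factors. They gave 4 higher and 1 to 10 lower for mitochondrial partners, 0 to 1 higher and 9 to 13 lower for recycling and initiation, and 0 higher and 0 to 1 lower for TAP1 and TAP2.

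Samples share only a number. Deviations of same-numbered libraries from their group means correlated at -0.463, -0.252 and 0.0519 for replicates 1, 2 and 3. Across numbers, RNF6 siRNA replicate 1 with control replicate 2 gave 0.461, and RNF6 siRNA replicate 2 with control replicate 1 gave 0.301. With 3 libraries per group these values cannot decide whether the samples were paired. A fit with the replicate block called 2 ABC genes higher and 5 lower. It gave 1421 for all tested genes higher and 1321 for all tested genes lower. For the lists the block gave 0 higher and 0 lower (LXR targets), 2 higher (NRF2 targets), 1 higher and 3 lower (conjugating enzymes), 2 higher and 4 lower (transcription factors), 0 higher and 1 lower (peroxisome partners), 1 lower (mitochondrial partners), 6 lower (recycling and initiation) and 0 lower (TAP1 and TAP2). The ranges of adjusted p given above include this fit, which also ended the calls of ABCB10 (0.0508), ABCA2 (0.136), ABCA3 (0.143), ABCC4 (0.164), ABCF1 (0.167), ABCG2 (0.0964), TAP2 (0.0677), NR1H2 (0.103), NR1H3 (0.0590), SREBF1 (0.151), PEX13 (0.0639), PEX6 (0.119), the catalase gene CAT (0.105), COL1A1 (0.0969) and VWF (0.0814), each an edgeR adjusted p. It has fewer residual degrees of freedom. Upper-quartile factors gave a median log2 fold change of all tested genes of 0.0242, against 0.01 with TMM. ABC genes with few reads, such as ABCD2, have wide intervals, and 13 ABC genes could not be tested at this depth.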

Other observations

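Rows of ABC pseudogenes and antisense genes, which carry letters after the number, numbered 15. Of these, 10 had 0 reads in all libraries, among them ABCF2P1, ABCF2P2 and the pseudogenes of ABCB10. ABCA11P, a pseudogene, was the row that could be tested, with 12, 10 and 4 reads after RNF6 siRNA and 8, 5 and 17 reads after control siRNA (log2 fold change −0.36, edgeR adjusted p = 0.637). ABCA17P had 0, 0 and 6 reads after RNF6 siRNA and 1, 3 and 3 reads after control siRNA. ABCC6P1 and ABCC6P2 had at most 2 reads in any library, although ABCC6 itself had 24 to 43 reads.

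The motif CACGTG, an E-box, was found in 9 of 53 windows of ABC genes (17.0%) and in 6.34% of all windows. Some of those windows overlap, as the starts of ABCG2 do, so they are not independent.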
